A study of Rattus norvegicus with 8 samples.

Results

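The genes described here were 36 named genes of the liver's supporting cells, read in liver RNA of 21-day-old male Sprague-Dawley rats. They comprised 21 genes of the extracellular matrix and its turnover, 7 genes of stellate and contractile cells and 8 endothelial genes, and they were chosen by name from a fixed list. Each gene was represented by the probe with the brightest Cy5 signal. A named probe was found for 31 of the 36 genes, and 26 of those were bright enough in liver to be tested, among 10564 genes and unnamed probes tested in all. The control animals were born to and nursed by dams that received corn oil. The dams of the mixture animals, labelled 0.5MAhR, received in that oil 0.5 mg/kg/day of a blend of organochlorine pesticides, PCBs and methyl mercury, to which agonists of the aryl hydrocarbon receptor (AhR) were added, namely non-ortho-PCBs, polychlorinated dibenzodioxins and dibenzofurans. The total AhR agonist dose was 6.3 ng/kg/day in TCDD equivalents. Dosing of the dams covered gestation and lactation, and pups of both groups stayed with their birth mothers. Each array held liver RNA pooled from 2 pups, so that 8 pups gave 4 arrays in each group, numbered 5 to 8 for control and 1 to 4 for mixture. The sample was labelled with Cy5 and a universal rat reference RNA, made from 14 rat cell lines, with Cy3. The labels do not name the litters, so p-values measure the spread between pools.

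Hepatic stellate cells lie between the hepatocytes and the sinusoids, store vitamin A and, when activated, turn into contractile cells that lay down fibrillar collagen. The matrix they make is remodelled by metalloproteinases, which are held in check by tissue inhibitors. Sinusoidal endothelial cells line the blood spaces of the liver, are fenestrated, and carry scavenger receptors and receptors for vascular endothelial growth factor. The AhR, the receptor targeted by some of the compounds in the mixture, binds DNA at elements with the core GCGTG.

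Promoter sequence from RefSeq (assembly GRCr8) was found for 22 of the 36 genes. The 4 shown here belong to genes at the low end of the liver-to-reference ratio (Col1a2 and Vim) and at its high end (Kdr and Lyve1), and they run from 250 to 70 bases before the annotated start. Capitals mark the letters TATAAA, as in a TATA box, CCAAT, as in a CCAAT box, and GCGTG, each on either strand and at any position shown.
Col1a2 promoter, chr4:33518307-33518487, plus strand: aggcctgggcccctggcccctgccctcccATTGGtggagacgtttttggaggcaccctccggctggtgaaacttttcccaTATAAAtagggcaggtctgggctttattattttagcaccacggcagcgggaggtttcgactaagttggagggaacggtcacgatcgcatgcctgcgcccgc
Vim promoter, chr17:81577011-81577191, plus strand: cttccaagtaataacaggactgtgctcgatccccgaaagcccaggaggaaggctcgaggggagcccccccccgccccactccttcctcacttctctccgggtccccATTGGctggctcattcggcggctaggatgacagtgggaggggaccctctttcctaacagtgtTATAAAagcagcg
Kdr promoter, chr14:32571813-32571993, plus strand: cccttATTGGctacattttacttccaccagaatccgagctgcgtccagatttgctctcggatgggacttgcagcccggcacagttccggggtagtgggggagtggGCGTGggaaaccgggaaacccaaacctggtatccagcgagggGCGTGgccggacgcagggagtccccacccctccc
Lyve1 promoter, chr1:174411047-174411227, minus strand: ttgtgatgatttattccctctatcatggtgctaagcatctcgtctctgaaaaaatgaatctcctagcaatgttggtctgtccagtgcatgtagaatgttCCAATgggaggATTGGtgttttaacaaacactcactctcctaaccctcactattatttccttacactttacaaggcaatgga
Over the 250 bases before the start, TATAAA was found in 3 of the 22 promoters (Col1a2, Vim and Flt1) and in 12.9% of 33469 rat promoters. CCAAT was found in 10 of 22 and in 34.0% of all. GCGTG was found in 8 of 22 and in 25.9% of all, and the members with it were Col4a1, Col4a2, Col6a1, Lum, Timp3, Reln, Kdr and Flt1. No match of one motif overlapped a match of another. These are matches of letters and do not show binding.

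The median Cy5 signal of an array lay between 81 and 94 intensity units over a background of 68 to 73, and the scanner software marked 42.9% to 49.2% of Cy5 spots as well above background. No spot was saturated. The number of arrays limits the precision. All 14 hepatocyte markers were well above background on all 8 arrays. Cyp1a1, the P450 classically induced through the AhR, was 16.4-fold higher in mixture than in control livers (limma adjusted p = 0.00269). By the position suffix of their scans, the 8 arrays lay on 1 slide in 2 sets of 4. The first number of that suffix is called slide column here and the second slide row, names that the labels do not give. Column 1 held control 5 and 7 and mixture 2 and 4, and column 2 held control 6 and 8 and mixture 1 and 3. Across genes, r was 0.981 to 0.991 within a column and 0.938 to 0.962 between columns. Slide column was therefore fitted beside group in every test below. Each of the 4 slide rows held 1 control and 1 mixture array, control 5 with mixture 1 in row 1, 6 with 2 in row 2, 7 with 3 in row 3 and 8 with 4 in row 4, and the median Cy5 background of both arrays was 68, 69, 71 and 73 in rows 1 to 4.

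Not every gene of the list could be read. Col4a2, Col5a2, Col6a1 and Lox among the matrix genes and Stab2, a scavenger receptor of sinusoidal endothelium, had no named probe and were not analysed here. Lum, Timp3, Flt1 and Tek were well above background in Cy5 on none of the 8 arrays. Acta2, the smooth muscle actin that marks activated stellate cells, was above background on 2 control and 2 mixture arrays and so was not tested either. Its log2 ratios were -1.57, -1.76, -1.54 and -1.50 on control arrays 5 to 8 and -1.47, -1.46, -1.77 and -1.36 on mixture arrays 1 to 4. These overlapped, and net Cy5 signals of 15.3 to 56.3 units place the probe close to background. Among the genes tested, Des passed only through the mixture group (3 arrays against 2), and Fbn1 was above background on 4 control and 3 mixture arrays.

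Against the cell-line reference, control liver carried less RNA of most listed matrix genes and most listed stellate and contractile genes. It carried more of every endothelial gene tested, although Pecam1 turned below the reference under median centring. Other stellate cell genes went the other way, since 11 of 12 tested outside the list were above the reference, as given further below. Of the 15 matrix genes 13 were lower in liver and 1, Fn1, was higher. Of the 6 stellate and contractile genes 5 were lower and 1, Reln, was higher, and all 5 endothelial genes were higher. The filter was on the liver channel, so genes dim in liver could not enter these counts. Lum, Timp3 and Flt1 were above background in the reference on all 8 arrays and in liver on none. Among all genes tested, 47.8% were higher in liver and 39.9% lower at the same threshold (limma adjusted p under 0.05). The median log2 ratio was -1.26 for matrix genes, -0.92 for stellate and contractile genes and 1.33 for endothelial genes, beside 0.09 over all genes tested. The dyes were never swapped, so a dye effect of a probe is part of these ratios and was not measured. Folds against the reference depend on the scaling: 24 of the 26 ratios moved by over 1.5-fold with median centring in place of loess, 7 when the signals processed by the scanner software were used, and 3 with an offset of 16 in place of 50 in the background correction. A ratio is set by the level in the cell lines as much as by that in liver, so a low one does not show that liver holds little of an RNA. Bgn, for example, had a mean net signal of 9913 units in Cy5 and 64326 in Cy3. In whole liver, fewer cells of a type and less RNA per cell cannot be told apart either.

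**Figure D1:**
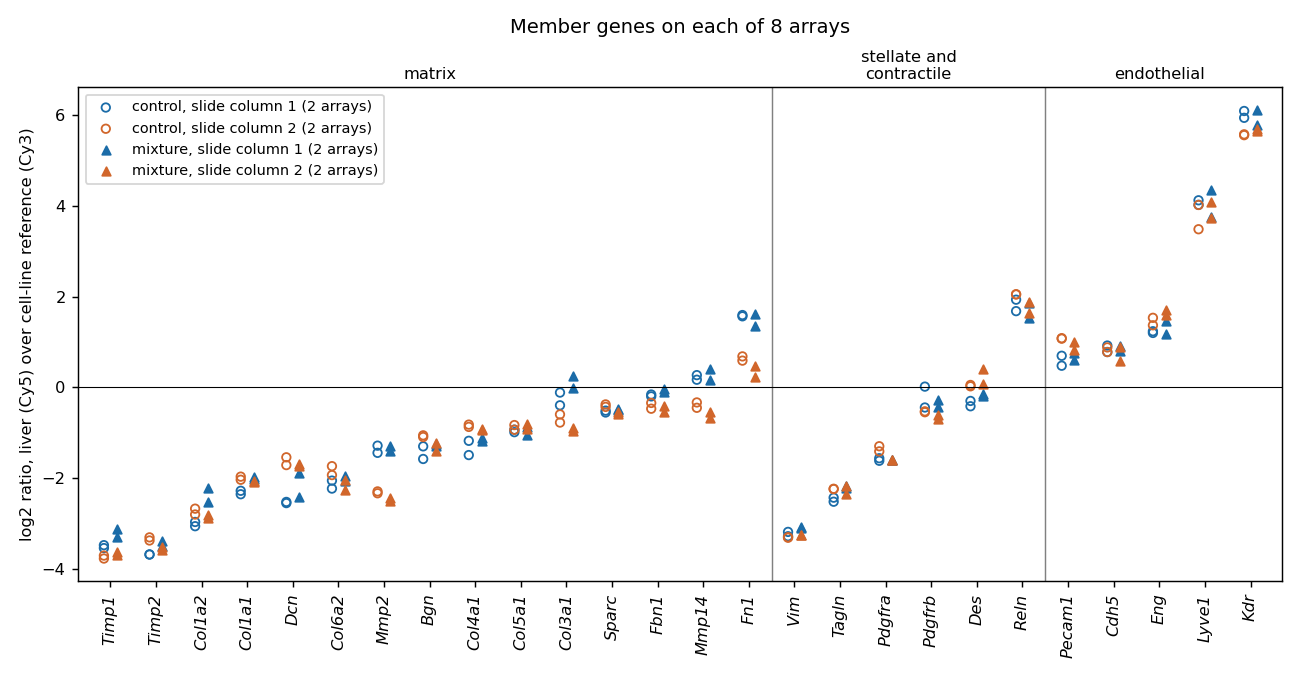
Log2 ratio of liver (Cy5) over cell-line reference (Cy3) for the 26 genes tested, on the vertical axis, with 1 point per array. Circles are control arrays, triangles mixture arrays, and colour gives the slide column; most matrix and stellate genes lie below 0 and all endothelial genes above, and Fn1, Mmp2 and Mmp14 split by slide column rather than by group.

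Among the fibrillar collagens, Col1a2, a chain of type I collagen, had log2 ratios of -2.97, -2.80, -3.06 and -2.67 on control arrays 5 to 8 and -2.88, -2.53, -2.81 and -2.21 on mixture arrays 1 to 4. Every array was thus well below the reference, with mixture 4 the highest of the 8. The control mean was -2.88 ± 0.17 (SD, n = 4), which is 7.34-fold below the reference (limma adjusted p = 1.80e-09). Its partner chain Col1a1 lay at -2.16 ± 0.19 (SD, n = 4) and was 4.47-fold lower, although its second probe had a control mean of -3.23. Col3a1, the type III chain that forms fibrils with type I, was only 1.39-fold lower in control liver, at -0.47 ± 0.28 (SD, n = 4). Its arrays ran from -0.96 to 0.24, and 1 array, mixture 4, was above the reference. Col4a1 of the basement membrane was 2.13-fold lower, Col6a2 of the beaded filaments 3.97-fold and Col5a1, which sets fibril diameter, 1.89-fold.

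The small proteoglycans that decorate collagen were also below the reference. Dcn (decorin) read -2.55, -1.71, -2.52 and -1.54 on control arrays 5 to 8 and -1.68, -2.42, -1.73 and -1.89 on mixture arrays 1 to 4. The groups overlapped, and the 2 control arrays of slide column 1 were the lowest of all 8. Its control mean was 4.24-fold below the reference. Bgn (biglycan) was 2.39-fold lower, Sparc, a collagen-binding matricellular protein, 1.38-fold and Fbn1, the microfibril protein, 1.22-fold. For Lum (lumican), above background in the reference but not in liver, the reference was at least 1.50-fold higher, counted from the lowest signal well above background on each array. No such bound could be given for Timp3, Flt1 or Tek.

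Fn1, the fibronectin that hepatocytes secrete into plasma, was the 1 matrix gene above the reference. Its log2 ratios were 1.57, 0.59, 1.59 and 0.68 on control arrays 5 to 8 and 0.24, 1.62, 0.47 and 1.35 on mixture arrays 1 to 4. All 8 were positive, and they fell into a high set in slide column 1 and a low set in column 2. The control mean was 1.11 ± 0.55 (SD, n = 4), 2.16-fold above the reference (limma adjusted p = 5.46e-08). With arrays centred on their median in place of loess it was 0.05, and the call was lost (adjusted p = 0.698).

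The matrix-degrading enzymes and their inhibitors differed among themselves. Timp1 and Timp2, both inhibitors of metalloproteinases, were 12.3-fold and 11.4-fold lower in control liver than in the reference, with control means of -3.63 ± 0.14 and -3.51 ± 0.20 (SD, n = 4). Mmp2, a gelatinase, was 3.58-fold lower. Mmp14, the membrane-bound metalloproteinase that activates Mmp2, did not pass the test, with a control mean of -0.09 ± 0.36 (SD, n = 4) and a limma adjusted p of 0.214. It was the 1 gene of the 26 that did not. Its control arrays lay at 0.27, -0.33, 0.17 and -0.45 for replicates 5 to 8, so that its sign followed the slide column.

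Among stellate and contractile genes, the intermediate filament gene Vim was 9.65-fold below the reference, and its 8 arrays spanned only -3.31 to -3.07. Tagln, an actin-binding protein of contractile cells, was 5.12-fold lower. The PDGF receptor Pdgfra, expressed by mesenchymal cells, was 2.77-fold lower, and Pdgfrb, the receptor through which PDGF drives stellate cell growth, 1.30-fold. Des, the filament protein used to stain rodent stellate cells, was 1.12-fold lower (limma adjusted p = 0.0275). That call was lost without slide column in the fit (adjusted p = 0.243) and without control replicate 6 (0.0787), 7 (0.108) or 8 (0.0621).

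Reln (reelin), a secreted glycoprotein made by hepatic stellate cells, went the other way from the rest of its list. It read 1.93, 2.05, 1.68 and 2.05 on control arrays 5 to 8 and 1.64, 1.53, 1.87 and 1.85 on mixture arrays 1 to 4. Every array was above the reference, and the groups overlapped. The control mean of 1.93 ± 0.17 (SD, n = 4) is 3.81-fold above the reference (limma adjusted p = 1.98e-09).

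Among the endothelial genes, Kdr is the main receptor for vascular endothelial growth factor. Its log2 ratios were 6.09, 5.56, 5.94 and 5.58 on control arrays 5 to 8 and 5.69, 5.77, 5.66 and 6.12 on mixture arrays 1 to 4. The ratio in control liver was 55.4-fold (limma adjusted p = 2.61e-13), but the reference was faint, at 27.5 to 38.8 net units on the control arrays, and not above background on control 8. The log2 ratio of Kdr was thus 5.79, but 4.75 with median centring, 6.78 with the offset of 16 and 8.21 with processed signals. Lyve1, the hyaluronan receptor of sinusoidal and lymphatic endothelium, read 4.02, 3.49, 4.12 and 4.02 on control arrays and 3.73, 3.75, 4.08 and 4.34 on mixture arrays. The reference was above background for it on no array, so only a bound can be given, and with the main scaling liver was at least 13.5-fold higher. The control log2 ratio itself was 3.91 (limma adjusted p = 2.87e-10 against 0). It was 3.09 with median centring and 8.79 with processed signals, so the bound does not hold for every scaling. Eng (endoglin), a TGF-beta co-receptor, was 2.52-fold above the reference, Cdh5, the endothelial cadherin, 1.79-fold and Pecam1, the platelet-endothelial adhesion molecule, 1.78-fold. On the log2 scale Eng ran from 0.76 to 2.63 over the alternatives and Cdh5 from 0.38 to 1.86, all above 0. Under median centring Pecam1 reversed to -0.22 and was no longer called (adjusted p = 0.0807).

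Between mixture and control livers no gene of the list passed the test, matrix and endothelial genes alike. Of the 26 genes tested, 0 had a limma adjusted p under 0.05, and their adjusted p-values ran from 0.726 to 0.987. Over all genes tested 5 of 10564 passed, or 0.0473%. Without slide column in the fit 1 gene passed, or 0.00947%, and none of the 26, each of which then had an adjusted p of 1.00. With slide row fitted as well as column, an alternative chosen after seeing the data, 0 of the 26 passed, at adjusted p of 0.528 to 0.984. At this background a count of 0 among 26 says little about the list. The 95% intervals of the differences lay between -0.43 and 0.60 on the log2 scale, and for 25 of the 26 genes they stayed within a 1.5-fold change in either direction. The exception was Col1a2, whose interval ended at 1.51-fold higher in mixture.

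**Figure D2:**
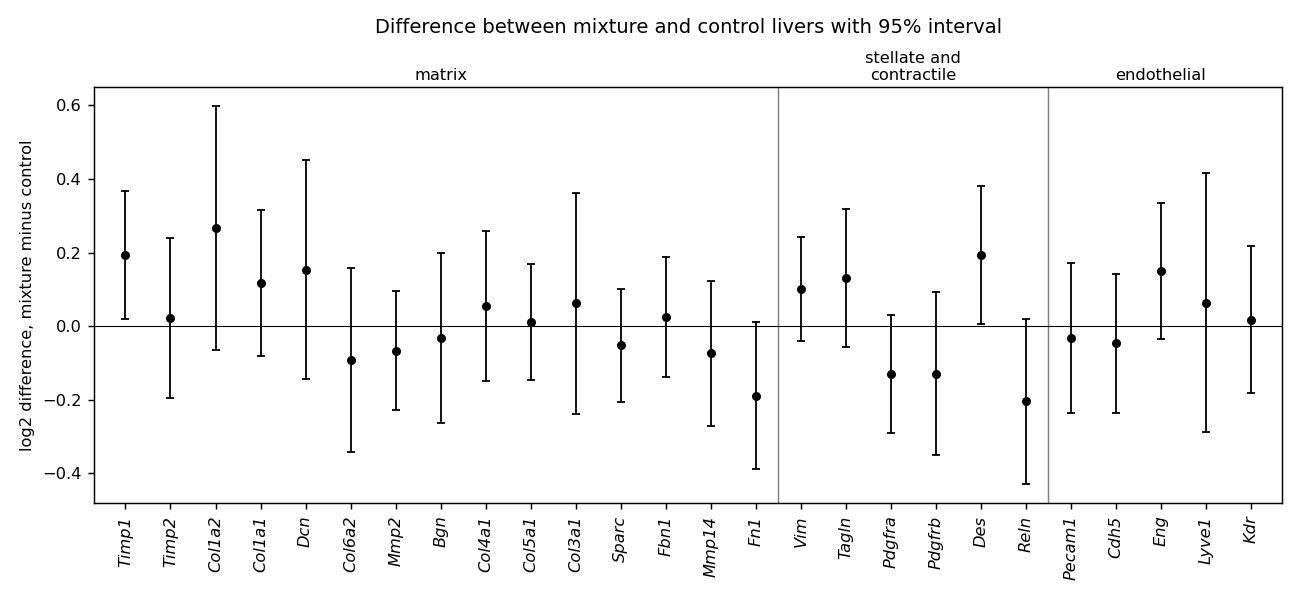
Difference in log2 ratio, mixture minus control, for the 26 genes tested, with slide column fitted. Points are limma estimates and bars 95% intervals. Only the intervals of Timp1 and Des lie wholly above 0, and neither gene passed the test after adjustment.

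Matrix genes had a median difference of 0.02 on the log2 scale, 9 being higher and 6 lower in mixture. Over all genes tested the median was -0.01, with 5057 of 10564 genes higher and 5507 lower. Timp1 had the smallest unadjusted p of the list, 0.0319. Its log2 ratios were -3.48, -3.77, -3.54 and -3.71 on control arrays 5 to 8 and -3.69, -3.11, -3.63 and -3.29 on mixture arrays 1 to 4. The groups overlapped over all 8 arrays, but within each slide column both mixture arrays lay above both control arrays. The same order was seen for Vim and Des. How often it occurs over all genes tested was not counted, so it is not evidence of a difference. The difference was 0.19 (SE 0.08, limma adjusted p = 0.726), or 0.31 in column 1 and 0.08 in column 2. Col1a2 had the largest estimate among matrix genes, 0.27 (SE 0.15, adjusted p = 0.874), and it was 0.13 without mixture replicate 4. Fn1 had the lowest, -0.19 (SE 0.09, adjusted p = 0.820).

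Where a matrix gene had a second measured probe, the values were compared. For Col1a1 the second probe gave a difference of 0.39 where the brightest gave 0.12, and on it mixture 4 had a net Cy5 signal of 1392 units against 406 to 959 on the other arrays. The probes of Fn1 gave -0.19 and -0.11, those of Bgn -0.03 and 0.09. The level against the reference also depended on the probe. Control means on the brightest and the second probe were -2.16 and -3.23 for Col1a1, 1.11 and 0.67 for Fn1, and -1.26 and -0.98 for Bgn.

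Stellate and contractile genes had a median difference of -0.01, 3 being higher and 3 lower, or -0.13 without Des, which passed the filter only through the mixture arrays. Des had an unadjusted p of 0.0456, at a difference of 0.19 (SE 0.08, adjusted p = 0.779). It read -0.30, 0.02, -0.42 and 0.05 on control arrays 5 to 8 and 0.41, -0.19, 0.06 and -0.15 on mixture arrays 1 to 4. The groups overlapped, although within each slide column the mixture arrays were the higher ones, an order not counted over all genes tested. Its net Cy5 signal was only 20 to 45 units, near the limit of what could be read. Apart from Des, Timp1 was the 1 gene of the list higher at an unadjusted p under 0.05 and 0 were lower, beside 3.60% higher and 2.65% lower over all genes tested. Reln had the lowest estimate, -0.20 (SE 0.10, adjusted p = 0.837). Pdgfra differed by -0.13, Pdgfrb by -0.13, Tagln by 0.13 and Vim by 0.10, none of which passed the test.

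Endothelial genes had a median difference of 0.02, 3 being higher and 2 lower. Eng read 1.20, 1.37, 1.24 and 1.53 on control arrays 5 to 8 and 1.59, 1.18, 1.70 and 1.46 on mixture arrays 1 to 4. The groups overlapped, and the difference of 0.15 (SE 0.08) did not pass the test (limma adjusted p = 0.874). For Kdr the estimate was 0.02, with a 95% interval of -0.18 to 0.22. For Lyve1 it was 0.06, with an interval of -0.29 to 0.42, and for Pecam1 and Cdh5 it was -0.03 and -0.05. No gene of the 26 had groups that did not overlap, beside 0.814% of all genes with every mixture array above every control array and 0.511% with every one below.

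The 2 dye channels were also read apart. In Cy5 alone 14 genes were called between the groups, or 0.133%, none of them of the list, whose lowest adjusted p was 0.451. In Cy3 alone, which holds the same reference RNA on every array, 1 gene was called, or 0.00947%, again none of the list. The Cy3 differences of the 26 genes between groups ran from -0.07 to 0.06.

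Within the slide columns, the differences of most matrix genes had opposite signs. In column 1 their median difference was 0.17 and in column 2 it was -0.15, each from 2 mixture and 2 control arrays and so with no test. For 13 of the 15 the sign differed between the columns, 12 being higher in mixture in column 1 and lower in column 2. Timp1 and Fn1 were the 2 exceptions, and for Col5a1 the order was the opposite. Over all genes tested 48.5% differed in sign between the columns, with medians of 0.01 and -0.02. Col1a2 is an example, at 0.64 in column 1 and -0.11 in column 2, and Col3a1 another, at 0.36 and -0.24. Col6a2 went from 0.13 to -0.32 and Dcn from 0.38 to -0.08.

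**Figure D3:**
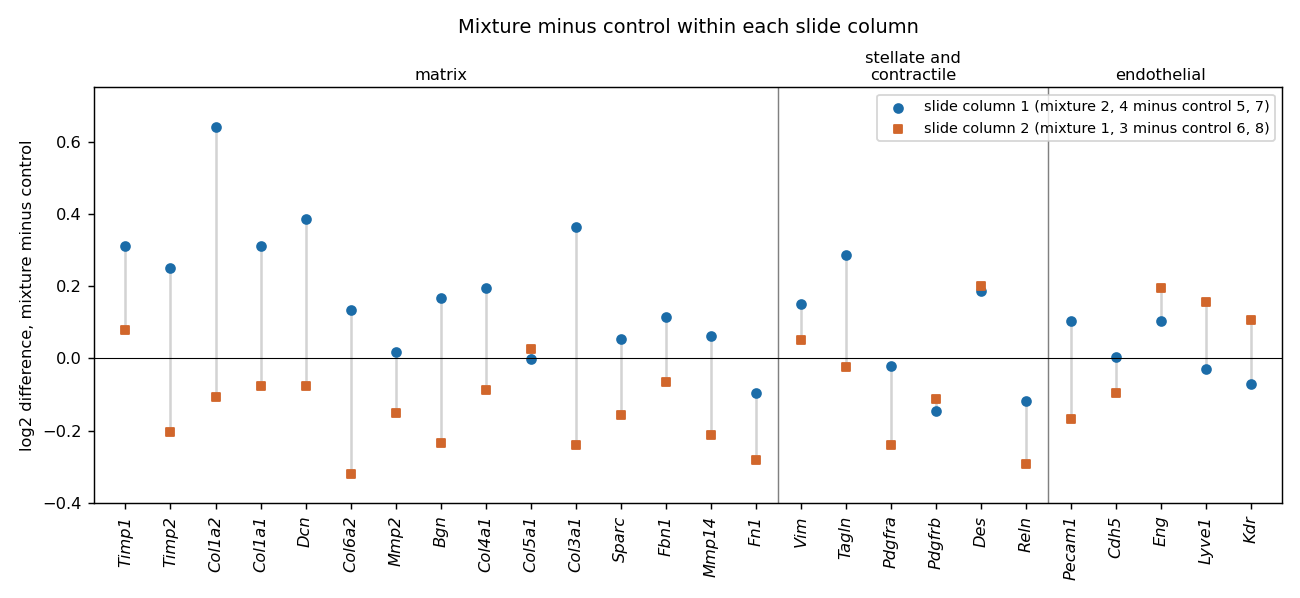
Difference in log2 ratio, mixture minus control, within slide column 1 (circles) and slide column 2 (squares) for the 26 genes tested, each from 2 arrays a group and joined by a line. For 12 of the 15 matrix genes the circle lies above 0 and the square below it, while Timp1, Vim, Des and Eng are above 0 in both columns.

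In each slide column, both mixture arrays lie in other rows than both control arrays (rows 2 and 4 against 1 and 3 in column 1, the reverse in column 2), so within a column row and group cannot be told apart. The mean deviation of matrix genes from their column's mean had the same sign in both arrays of each row. It was -0.05 for control 5 and -0.10 for mixture 1 in row 1, 0.05 for control 6 and 0.06 for mixture 2 in row 2, -0.14 for control 7 and -0.04 for mixture 3 in row 3, and 0.09 for control 8 and 0.14 for mixture 4 in row 4. This restates in part the opposite signs of the 2 columns and is no separate result. For all genes tested the signs matched in rows 1 and 4, but not in row 2 (-0.004 and 0.005) or row 3 (-0.019 and 0.014). In column 1, mixture 4 was the highest array for 11 of the 15 matrix genes and control 7 for none. In column 2, control 8 was the highest for 8 of the 15 matrix genes and mixture 1 for none. Over all 10564 genes tested, mixture 4 was the highest of its column for 2861 and control 7 for 2128, and control 8 was the highest for 3109 and mixture 1 for 2224. Stellate and contractile genes differed in sign between columns for 1 of 6, Tagln, and had medians of 0.07 and -0.07. Endothelial genes differed in sign for 4 of 5, with medians of 0.00 and 0.11, and Eng was the exception. Leaving out 1 array at a time put the median difference of matrix genes between -0.04, without control replicate 7, and 0.07, without control replicate 8.

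Most of these genes differed more between the slide columns than between the groups. The estimate for column was larger in size than that for group for 20 of the 26 genes, and for 8845 of all 10564. Of the 26 genes 13 differed between the columns at a limma adjusted p under 0.05, 5 being higher in column 2 and 8 lower. That count was 8 with median centring and 1 from processed signals, and the cause was not tested. Over all genes tested 28.0% were higher in column 2 and 28.8% lower. Fn1 was 2.05-fold lower in column 2, with a log2 difference of -1.04 (SE 0.09, adjusted p = 2.36e-05). Mmp2 was 2.05-fold lower too, at -1.03 (SE 0.07, adjusted p = 1.65e-05). Its arrays of column 1 ran from -1.44 to -1.28 and those of column 2 from -2.50 to -2.29, with control and mixture mixed in each. Mmp14 was 1.68-fold lower and Col3a1 1.66-fold lower in column 2, and Timp1, Fbn1, Pdgfrb and Kdr were lower by 1.24-fold to 1.28-fold. The 5 higher genes were Dcn, 1.60-fold, Des, 1.32-fold, Pecam1, 1.28-fold, Col4a1, 1.27-fold and Eng, 1.21-fold.

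**Figure D4:**
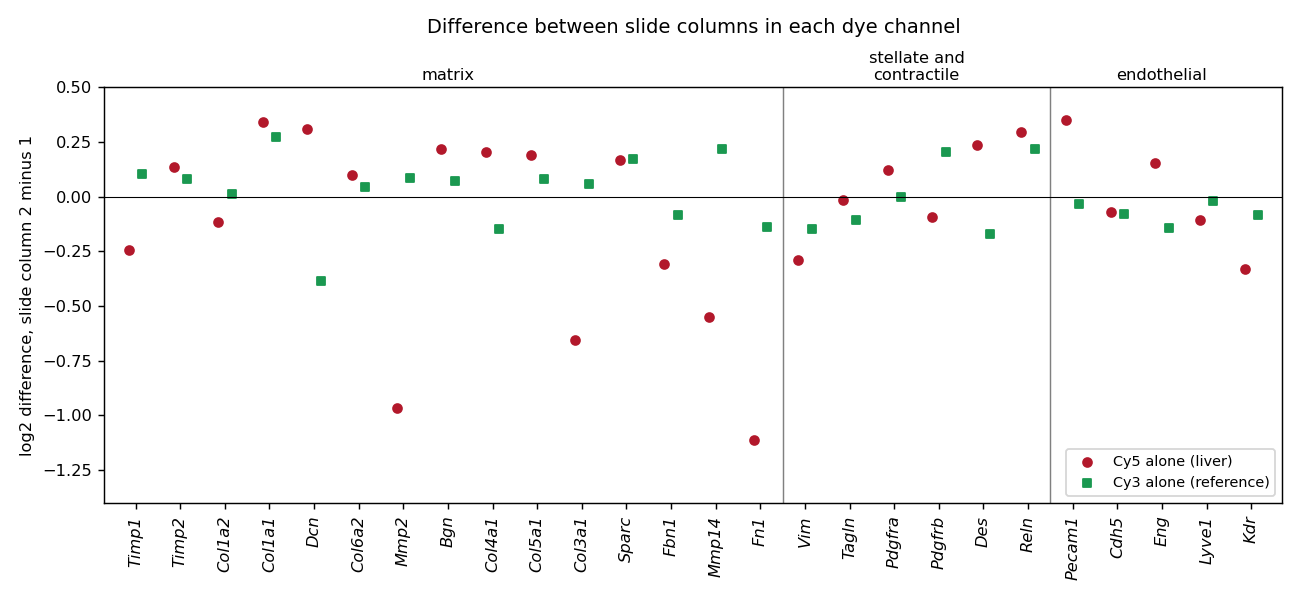
Log2 difference between slide columns, column 2 minus column 1, in the liver channel (Cy5, circles) and in the reference channel (Cy3, squares), each channel normalised alone, for the 26 genes tested. The Cy5 values of Fn1, Mmp2, Col3a1 and Mmp14 reach far below 0 while every Cy3 value stays between -0.38 and 0.27.

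Both channels were then read apart between columns. In Cy5 alone, 10 of the 13 genes differed in the same direction and passed the test, and in Cy3 alone 9 of the 13 passed. The Cy5 difference was the larger in size for all of the 13 but Dcn and Pdgfrb. For Fn1 the difference was -1.11 in Cy5 and -0.14 in Cy3, and for Mmp2 it was -0.96 and 0.09. The 3 genes that did not pass in Cy5 were Dcn, at 0.31 in Cy5 (adjusted p = 0.0815) and -0.38 in Cy3 (1.45e-05), Pdgfrb, at -0.09 (0.469) and 0.20 (0.00147), and Col4a1, at 0.21 (0.0513) and -0.15 (0.000898). For Eng the channels were close in size, 0.15 and -0.14. The second probe of Fn1 differed by -0.77 between the columns. The second probe of Mmp2 differed by 0.02, but it was above background on only 2 control arrays and 1 mixture array.

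Further genes of the same pathways, from lists that hold no member, did not pass the test between groups either. Their counts of direction stand beside 5057 higher and 5507 lower of all 10564 genes tested. Of 16 other matrix and basement membrane genes tested 7 were higher and 9 lower in mixture, and 0 passed. Eln (elastin) had the largest difference, 0.51 (SE 0.14, limma adjusted p = 0.424), at 0.88 in column 1 and 0.15 in column 2, and Ecm1, a secreted matrix protein, had -0.29 (adjusted p = 0.718). Of 10 genes of collagen processing 7 were higher and 0 passed, with Loxl2, a lysyl oxidase homologue, at 0.26 (adjusted p = 0.779) and Plod1, a lysyl hydroxylase, at 0.08 (adjusted p = 0.911). Of 9 genes of TGF-beta and PDGF signalling 7 were higher and 0 passed, Tgfb1 itself at 0.07 (adjusted p = 0.932) and Tgif1, a repressor of that pathway, at 0.13 (adjusted p = 0.889). Of 7 other proteinases and inhibitors 2 were higher and 0 passed, with the cysteine proteinase inhibitor Cst3 at -0.14 and the metalloproteinase Mmp15 at -0.07.

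Other stellate cell genes split as 5 higher and 7 lower, with 0 of 12 past the test. Plin2, which coats lipid droplets, was at -0.21 (limma adjusted p = 0.882) and Angptl6, a secreted angiopoietin-like protein, at -0.18 (adjusted p = 0.874). Other endothelial genes split as 6 higher and 8 lower, with 0 of 14 past the test. Plvap, the diaphragm protein of fenestrae and caveolae, was at 0.19 (adjusted p = 0.802) and Ramp2, a co-receptor for adrenomedullin, at 0.14 (adjusted p = 0.880). In control liver 11 of these 12 stellate cell genes were above the reference, with a median log2 ratio of 2.11, and 12 of the 14 endothelial genes, with a median of 1.17. Genes dim in liver could not enter these counts either.

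Markers of other cell types are given beside these results, and their part in them was not tested. Of all 10564 genes tested 5057 were higher in mixture and 5507 lower, and no list was tested as a set. Of 13 Kupffer cell and macrophage markers tested 12 were higher in mixture, with a median difference of 0.15 and 0 past the test. Their median log2 ratio ran from 2.89 to 3.49 over control arrays and from 3.10 to 3.74 over mixture arrays. Mixture 4 was the highest array of column 1 for 10 of these 13 markers, and mixture 3 was the highest of column 2 for 11. Of all 10564 genes tested they were the highest for 2861 and 2416. Cd14, the lipopolysaccharide co-receptor, was at 0.37 (limma adjusted p = 0.447) and Adgre1, which encodes F4/80, at 0.36 (0.795). Of 14 hepatocyte markers 13 were lower in mixture, with a median of -0.11 and 0 past the test. The 1 higher was Apoa2, an apolipoprotein of HDL, at 0.45 (limma adjusted p = 0.369), and Fgb, the fibrinogen beta chain, was at -0.28 (0.447). The list's median log2 ratio ran from 7.17 to 7.52 over control and from 7.19 to 7.37 over mixture arrays. Of 6 mesothelial and fibroblast markers tested, of 11 listed, 5 were higher, with a median of 0.12 and 0 past the test, between -3.30 and -2.68 on control and between -3.44 and -2.49 on mixture arrays. Of these S100a6 was at 0.23 (limma adjusted p = 0.874) and Cd248 at 0.18 (0.820). Wt1, Thy1, Fbln1 and Gli1 of that list were above background in Cy5 on no array. The 5 cholangiocyte markers had a median of -0.02 and the 4 red cell markers one of 0.16, with 0 past the test in either. The bile duct markers ran from -0.12 to 0.13 on control and from -0.19 to 0.25 on mixture arrays, and the red cell markers from 4.18 to 4.39 and from 3.91 to 4.84. Onecut1 was at -0.45 (limma adjusted p = 0.874) and Epcam at 0.06 (0.938), Slc4a1, the red cell anion exchanger, at 0.23 (0.913) and Ahsp, which stabilises alpha haemoglobin, at 0.17 (0.905). Cftr of the former and Epb42 and Gata1 of the latter were above background on no array.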

How the data were processed

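Liver RNA was measured on 8 two-channel Agilent arrays, 4 control and 4 mixture, of a study of 72 arrays whose others were not analysed here. The genes and lists were chosen with earlier results of these data known. Spot intensity values, median signal and median background of each channel, were deposited as the scanner software wrote them, which per the file headers was Agilent Feature Extraction, version 11.0.1.1. Per the labels' protocols 200 ng of RNA was amplified and labelled in 1 dye orientation. The authors' deposited value table, used as an alternative, gives log2 ratios with Cy5 over Cy3 (r of 0.997 to 0.998 and slope of 0.996 to 1.00 against the scanner values, column medians -0.0389 to -0.0326). How it was centred remains unknown.

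With limma 3.58.1 (R 4.3.3), normexp with an offset of 50 corrected the background, and arrays were normalised by loess, with control spots at no weight and outlier spots left out (771 to 956 an array). Spots of a probe were averaged. Of 30367 probes 18005 matched a symbol by accession in RefSeq (GRCr8). A probe counted as above background on an array if most of its spots were so marked, and was tested where 3 or more of a group's 4 arrays met this in Cy5, which fixes what can be measured. lmFit and eBayes fitted group and slide column, which comes from the position suffix of the scans, over 10564 genes and unnamed probes, with Benjamini-Hochberg adjustment, a threshold of 0.05 and two-sided tests. The reference comparison is the control mean against 0. Bounds used as floor the dimmest probe signal marked well above background, after loess and Aquantile. All list members were named, and from each further list the 2 genes with the smallest unadjusted p, since none passed. Fits were tested on simulated data with planted differences larger than any estimated for the list, which does not show whether differences as small as those would be found. Alternatives changed the background correction, offset, normalisation, starting values, filter, probe choice, channel, slide column and arrays, and slide row was fitted beside column as an alternative chosen after seeing the data.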

Additional observations from a re-analysis of the deposited data

Results flagged for a closer look

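Lyve1 on control replicate 6 lay far below the other control arrays. Its log2 ratio was 3.49, beside 4.02 to 4.12 on the other 3, a gap of 0.838 of the group's range and past Dixon's critical value for 4 samples. Over the 26 genes in 2 groups, 52 groups were checked and this was the 1 that stood out; chance alone gives about 1 in 20. Without that array the control mean of Lyve1 was 4.04 in place of 3.91 and stayed above the reference (limma adjusted p = 3.17e-09).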

How the results depend on the processing

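No gene of the list was called between mixture and control under any alternative run. Of 492 alternative values of their differences 38 changed sign, in 11 of the 26 genes, none of them called. The number of genes called over the whole table was 5, and it was 1 without slide column in the fit, 3 with median centring, 0 with the scanner software's processed signals (860 at an unadjusted p under 0.05), 3 with probes above background on all 8 arrays, 14 in Cy5 alone, and 1 to 11 with 1 array left out, the highest without mixture replicate 2. Without control arrays 5, 6, 7 and 8 it was 1, 2, 8 and 2, and without mixture arrays 1, 3 and 4 it was 2, 1 and 1. The cause was not tested, apart from fewer arrays or genes where the alternative itself leaves them out.

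The median difference of stellate and contractile genes, -0.01, was 0.074 with no filter on dim probes, -0.13 with probes above background on all 8 arrays and 0.065 in slide column 1 alone. That of matrix genes, 0.02, was -0.15 in slide column 2 alone. Of 466 alternative values of the ratio to the reference 7 lost the call, 3 gained it, all Mmp14, and 1 reversed: Pecam1 at -0.22 with median centring, which moves the median of all genes from 0.09 to -0.82. Calls were also lost for Col3a1 without slide column (adjusted p = 0.0589), Sparc with processed signals (0.278), Fn1 and Des. Genes of the list differing between slide columns numbered 13, but 8 with median centring and 1 with processed signals. In Cy3 alone 1 gene was called between groups, 2 without background correction and 1 to 7 with 1 array left out, 7 without mixture replicate 2 and 2 without mixture replicate 3. The labels give no pairing of animals between the groups, which share no replicate number. With slide row, which holds 1 array of each group, fitted beside column (2 residual degrees of freedom, chosen after seeing the data) 5 genes were called, 0 of the list between groups, 25 of the list against the reference and 14 between columns. Signal over background keeps 5 of the 31 genes with a probe out of every test.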
